A study of Homo sapiens with 27 samples.

Results

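The Hippo pathway and its outputs through YAP, TAZ and TEAD were followed in teloHAEC, a line of human aortic endothelium made immortal, after deletion of candidate enhancers with Cas9. The 10 genes described here were named as regulators and targets of the pathway and taken from 14008 genes in a table of read counts: CCN1, CCN2, ANKRD1, AMOTL2, AXL, AJUBA, LATS2, YAP1, WWTR1 and TEAD1. All 10 were found by their Ensembl identifiers, and all 10 passed the filter on low counts in every comparison. They were chosen with earlier results of the same libraries known, so their fold changes and p-values describe these libraries and are no independent evidence.

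Messenger RNA 3′ ends were counted in 27 libraries, from cells collected 2 days after electroporation with Cas9 complexed to guide RNAs, at 150000 cells per replicate. In set A, 4 libraries came from cells given guides that flank a candidate enhancer of SMAD3, a transcription factor gene of TGF-beta signalling, 4 from cells given a guide against HPRT, a purine salvage gene that served as the positive control, and 4 from cells given a non-targeting guide, the negative control. In set B, 4 libraries came from cells with guides flanking a candidate enhancer of LDAH (earlier C2orf43), a hydrolase gene of lipid droplets, 4 from HPRT-targeted cells and 7 from negative control cells. All groups received Cas9, a guide and an electric pulse, and the cells were mixed populations in which the share with the deletion was not analysed here. The labels do not say that replicates were separate cultures beyond their electroporation, so a p-value here reflects only how these samples vary, which may be technical. Library numbers in the labels run from 10 to 13 for SMAD3 deletion and 26 to 33 for the other groups of set A, and from 50 to 54 for LDAH deletion and 55 to 67 for the other groups of set B. HPRT-targeted and negative control numbers are interleaved within these ranges. Their meaning is not given, so deletion and any difference in handling between these ranges cannot be told apart.

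The Hippo pathway is a kinase cascade that restrains growth in response to cell contact, shape and tension. Its last kinases, LATS1 and LATS2, phosphorylate the coactivators YAP (YAP1) and TAZ (WWTR1), which keeps these in the cytoplasm. When the kinases are inactive, YAP and TAZ enter the nucleus, bind TEAD proteins on DNA and switch on genes for secreted CCN proteins, for cytoskeletal and junctional proteins and for inhibitors of the pathway itself. In endothelial cells the pathway responds to blood flow and junctions and takes part in the sprouting of vessels.

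TEAD proteins recognise the letters GGAATG, and the known YAP targets CCN2 and ANKRD1 are shown with LATS2, a target whose window held no match, to let the promoters be compared. The sequences are from RefSeq on GRCh38.p14, and 8 of the 10 genes had an entry of 250 bases before a gene start, searched for GGAATG on both strands. The stretches shown leave out bases that GENCODE 29 annotates as untranslated region, and capitals mark the TEAD letters.
CCN2 (chr6:131951374-131951622, minus strand): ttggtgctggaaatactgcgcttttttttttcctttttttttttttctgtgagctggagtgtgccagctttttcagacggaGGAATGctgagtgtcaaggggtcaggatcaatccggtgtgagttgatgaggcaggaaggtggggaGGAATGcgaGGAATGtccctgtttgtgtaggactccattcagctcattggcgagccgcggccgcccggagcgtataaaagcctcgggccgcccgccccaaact
ANKRD1 (chr10:90921277-90921337, minus strand): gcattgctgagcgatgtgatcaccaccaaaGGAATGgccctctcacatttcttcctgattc
LATS2 (chr13:21061587-21061836, minus strand): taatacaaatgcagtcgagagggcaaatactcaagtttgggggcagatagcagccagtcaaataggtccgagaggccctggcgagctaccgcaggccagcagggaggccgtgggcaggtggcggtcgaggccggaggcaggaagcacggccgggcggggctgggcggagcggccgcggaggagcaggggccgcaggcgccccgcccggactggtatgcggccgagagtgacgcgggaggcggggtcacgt
CCN2 held 3 matches, starting 169, 104 and 95 bases before the gene start. ANKRD1 held 2, at 220 and 128 bases, of which the match at 220 lies in the stretch shown. Of 35116 promoter windows of this length in the table, 11.9% held at least 1 match, 0.94% at least 2 and 0.0826% at least 3. YAP1 held 1 match at 162 bases, and AMOTL2, AJUBA and AXL each held 1 match in the second of 2 windows, at 69, 59 and 212 bases. WWTR1 held 0 in 2 windows. The letters of an AP-1 site, TGANTCA, searched on both strands, occurred once in these windows, in ANKRD1, and 6.57% of all windows held at least 1. A match is a description of the letters, and occupancy was not measured. CCN1 and TEAD1 had no entry.

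Libraries held 4.76 to 7.75 M reads (set A) and 3.43 to 6.41 M reads (set B). Levels are given as CPM, read counts relative to the scaled size of the library, with means ± SD over n libraries. A group of 7 libraries stands apart by its correlation over genes with the other libraries of its set, the median being 0.889 to 0.948 against 0.978 to 0.985 in set A, and 0.796 to 0.848 against 0.929 to 0.966 in set B. They were SMAD3 deletion replicate 4 and HPRT-targeted replicate 3 of set A, and LDAH deletion replicate 4, HPRT-targeted replicates 2 and 4 and negative control replicates 6 and 7 of set B. Ribosomal protein genes took 15.3% to 16.4% of counts in those of set A and 14.9% to 17.3% in those of set B, against 11.7% to 14.5% and 9.35% to 11.3% in the others. The targeted genes were measured first. SMAD3 stood at 98.5 ± 15.9 CPM in SMAD3 deletion and 134 ± 9.54 CPM in negative control libraries (n = 4 each), LDAH at 7.08 ± 3.36 CPM in LDAH deletion (n = 4) and 12.04 ± 3.43 CPM in negative control libraries (n = 7), and none passed edgeR's test (adjusted p from 0.702 to 1.00). HPRT1 was at 34.1 ± 6.83 CPM in HPRT-targeted and 42.8 ± 8.36 CPM in negative control libraries of set A, and at 41.5 ± 12.5 and 48.9 ± 20.8 CPM in those of set B. All 11 endothelial markers listed were measured, PECAM1 at 165 to 562 CPM and CDH5 at 107 to 402 CPM, while VWF was low, with a median of 2.86 CPM and 3 libraries at 0. Of 9 smooth muscle and mesenchymal markers 2 were measured, ACTA2 and TAGLN, of 4 blood markers 1, CD68, and of 4 epithelial markers 0. The libraries are bulk RNA, in which fewer cells of a type and less RNA per cell cannot be told apart.

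Which pathway genes differ when the LDAH enhancer is deleted was asked against the negative control of set B. CCN1, the matricellular protein once named CYR61 that binds integrins and is a direct YAP target, stood lower in every deletion library than in every control library. Its fold change did not pass the test over all genes with all libraries, and did without the 7 libraries that stand apart. Leaving these out was not planned but added later, and they were picked by their expression in the same counts. The values without them, here and below, are therefore descriptions. YAP1 itself, AJUBA and CCN2 were also lower on average, with overlapping groups, while ANKRD1, AXL and AMOTL2 were higher on average and WWTR1 and TEAD1 had log2 fold changes of -0.01 and -0.03. By the quasi-likelihood test of edgeR, adjusted after Benjamini and Hochberg, 0 of the 10 genes and 0% of all 11769 genes passed at 0.05. An unadjusted p under 0.05 was reached by 2 of the 10, CCN1 and YAP1, and by 543 of all genes, 4.61%.

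CCN1 (ENSG00000142871; chromosome 1, 85580761 to 85583962, GRCh38) measured 69.7, 64.8, 30.1 and 81.5 CPM in the 4 LDAH deletion libraries. In the 7 negative control libraries of set B it ran from 94.2 to 135 CPM, with a median of 111 CPM. The highest deletion library lay under the lowest control library, and the third deletion library was the lowest of all 27. Of all genes tested, 0.697% were lower without overlap in this comparison. The means were 61.5 ± 22.1 CPM (n = 4) in the deletion and 114 ± 14.4 CPM (n = 7) in the control, a log2 fold change of -0.89 ± 0.22 (SE) with a 95% interval from -1.36 to -0.43. The adjusted p from edgeR was 0.693. With 1 library left out the value ran from -1.06 to -0.66, the smallest difference being without LDAH deletion replicate 3, and the lowest adjusted p was 0.122. Without the 7 libraries, CCN1 averaged 54.9 ± 21.6 CPM (n = 3) in the deletion and 116 ± 16.6 CPM (n = 5) in the control, and it fell by 1.10 ± 0.20 on the log2 scale (edgeR adjusted p = 0.00414, where 212 genes, 1.74% of those tested, passed). The deletion library left out, replicate 4, had the highest CCN1 of its group (81.5 CPM), so a larger fall was in part built in. The control libraries left out, at 104 and 111 CPM, lay within the range of the other controls.

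**Figure D1:**
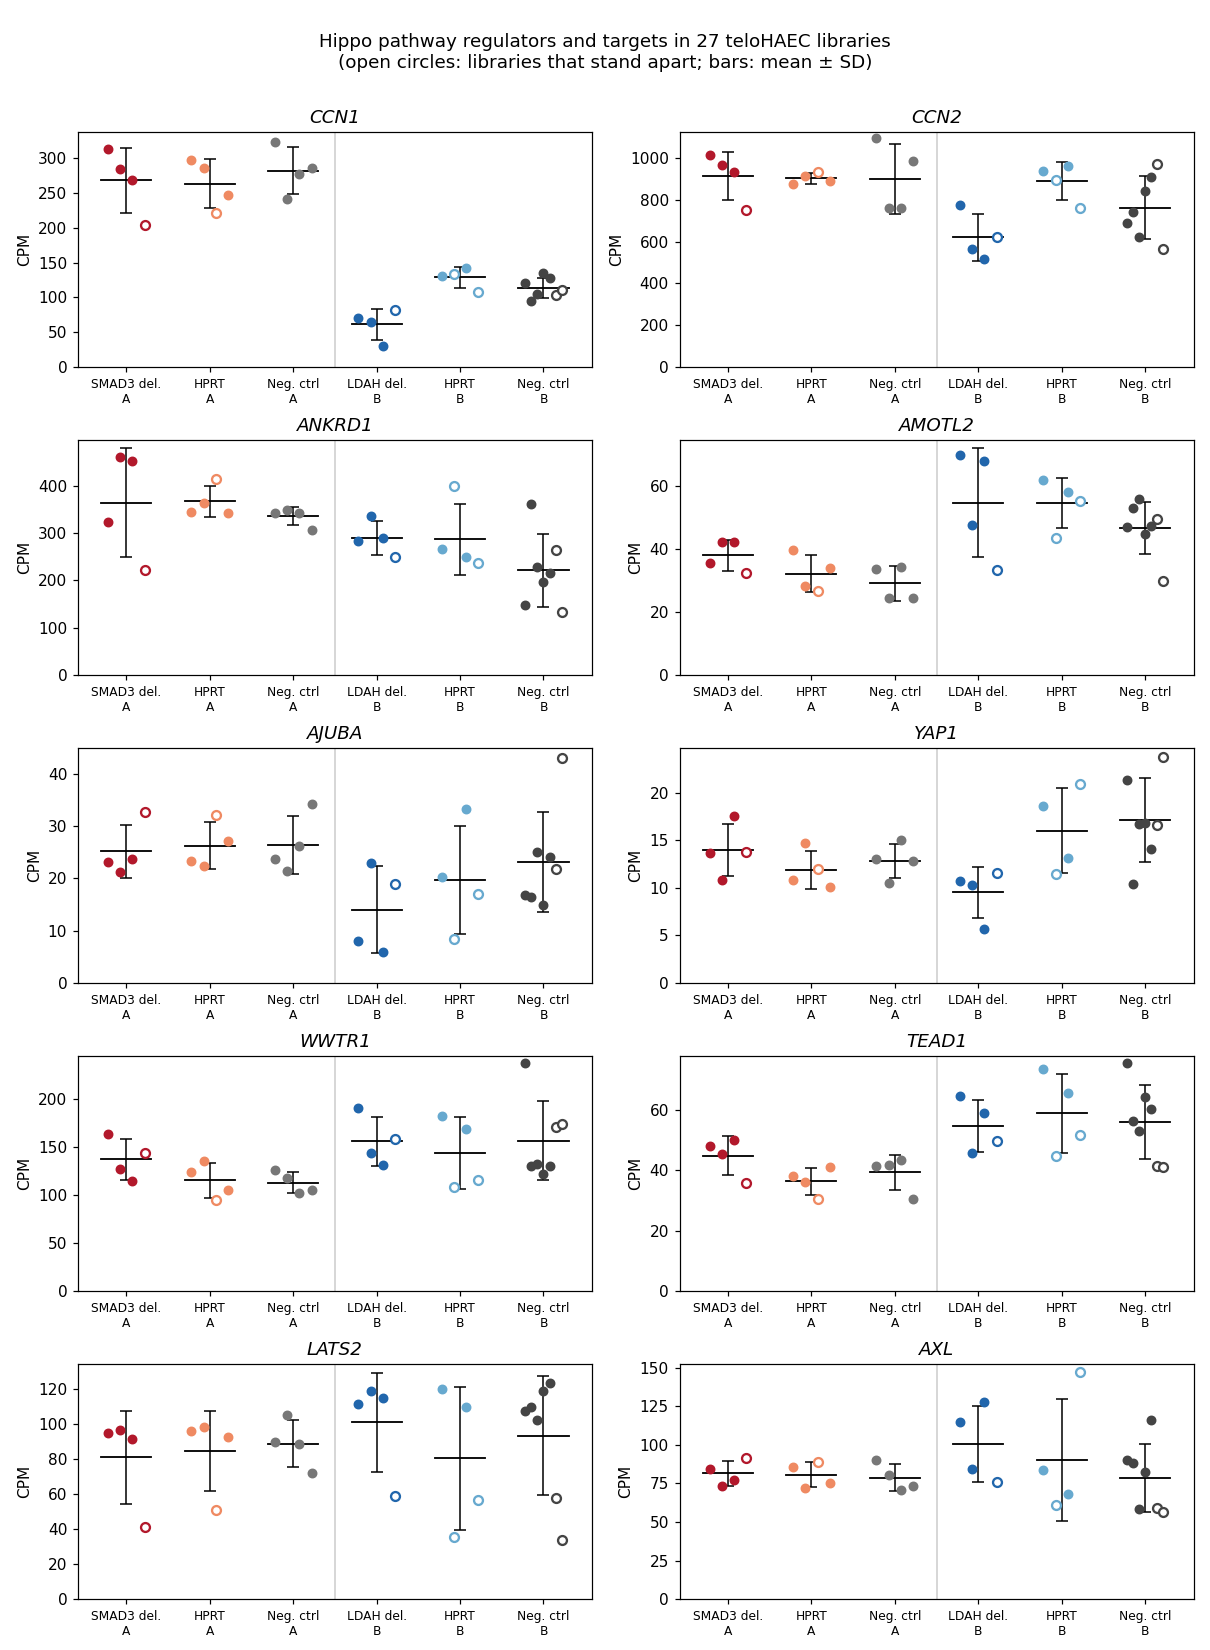
CPM (linear axes from 0) of the 10 genes in each of 27 libraries, by group, with set A left and set B right of the grey line. Points are libraries, open circles the 7 that stand apart, and bars mean ± SD; CCN1 of the 4 LDAH deletion libraries lies at 30.1 to 81.5 CPM, under all other libraries, and the open circles of LATS2 lie under the filled ones.

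The HPRT-targeted cells of set B, the positive control by their label, received a guide against HPRT, and the deletion cells guides that flank the enhancer. Cutting was not analysed here in either, so these groups are not known to match in it. In the HPRT-targeted cells CCN1 measured 131, 134, 142 and 108 CPM. Again no deletion library reached any of these 4, a pattern that 1.22% of genes showed. The log2 fold change of the deletion over HPRT targeting was -1.07 ± 0.24, with an interval from -1.58 to -0.56, an edgeR adjusted p of 0.948. In this comparison 3 of the 10 genes, CCN1, CCN2 and YAP1, had an unadjusted p under 0.05, as had 4.22% of all genes, and 0% passed adjusted. Without the 7 libraries CCN1 fell by 1.32 ± 0.24 (edgeR adjusted p = 0.00787), with 2 HPRT-targeted libraries left in the group, and 77 genes, 0.634%, passed. The HPRT-targeted libraries left out were replicate 2, at 134 CPM, and replicate 4, at 108 CPM the lowest of its group. Both comparisons share the deletion libraries. In them 1 of 4 deletion, 2 of 4 HPRT-targeted and 2 of 7 negative control libraries stood apart. The summed endothelial markers ran from 1135 to 1810 CPM in the deletion and from 963 to 1944 CPM in the negative control, and ACTA2 and TAGLN together from 33.1 to 62.5 CPM in the deletion and from 21.6 to 48.1 CPM in the control; their part in the CCN1 difference was not tested.

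**Figure D2:**
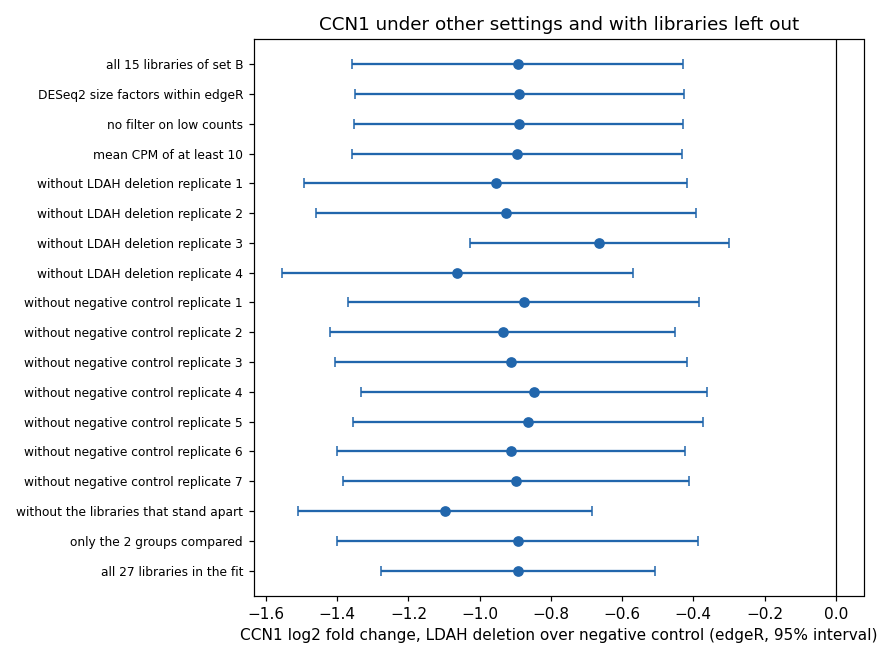
Log2 fold change of CCN1, LDAH deletion over negative control of set B, with its 95% interval from edgeR (horizontal axis). Rows are edgeR settings and fits with LDAH deletion or negative control libraries left out. DESeq2, voom and fits that leave out 1 HPRT-targeted library are not shown. Every point lies below 0, from -1.10 without the 7 libraries that stand apart to -0.66 without LDAH deletion replicate 3.

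CCN2, the secreted relative of CCN1 once named CTGF and a promoter of matrix deposition, had 776, 564, 518 and 622 CPM in the LDAH deletion. The negative control of set B ranged from 563 to 971 CPM with a median of 742 CPM, and the HPRT-targeted libraries had 937, 896, 962 and 759 CPM. Of the 4 deletion libraries, 3 lay below the control median, and the deletion overlapped both groups. The log2 fold change was -0.30 ± 0.17 against the negative control (interval -0.66 to 0.05, edgeR adjusted p = 1.00) and -0.53 ± 0.19 against HPRT targeting (interval -0.93 to -0.13, edgeR adjusted p = 0.948). CCN2 thus had the same sign as CCN1 at a smaller size, and the difference between the genes was not tested. The other members of the CCN family were not analysed here.

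Among the other targets, ANKRD1, a muscle-type ankyrin repeat protein of nucleus and cytoskeleton, averaged 290.4 ± 35.6 CPM across 4 LDAH deletion and 221 ± 77.0 CPM across 7 negative control libraries, a log2 fold change of 0.39 ± 0.24 with overlapping groups. AXL, a receptor tyrosine kinase for GAS6, had 0.35 ± 0.26, at 115, 84.2, 128 and 76.1 CPM in the deletion and 56.2 to 116 CPM in the control. AMOTL2, a junctional scaffold that binds YAP and is also its target, had 0.22 ± 0.21. Their edgeR adjusted p-values were all 1.00. Against HPRT targeting the log2 fold changes of the 3 genes were 0.01, 0.15 and -0.00, each smaller than its SE.

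Of the regulators, YAP1 was a weakly counted gene, with 34 to 64 reads in the LDAH deletion libraries and 62 to 133 in their negative control. Its levels were 10.7, 10.2, 5.62 and 11.6 CPM in the deletion, against a range of 10.4 to 23.7 CPM with a median of 16.7 CPM in the control. A single control library, at 10.4 CPM, lay among the deletion values, so the groups overlapped. The log2 fold change was -0.85 ± 0.29 (interval -1.46 to -0.24, edgeR adjusted p = 0.919), and -0.75 ± 0.32 against HPRT targeting (edgeR adjusted p = 0.948), where YAP1 had 18.5, 11.5, 13.1 and 20.9 CPM. It was -0.85 ± 0.30 without the 7 libraries (edgeR adjusted p = 0.189). AJUBA, a LIM protein that holds back the LATS kinases, was spread widely in the deletion, at 7.97, 23.0, 5.95 and 18.96 CPM, against 14.9 to 43.03 CPM in the control, with a log2 fold change of -0.73 ± 0.43.

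The third LDAH deletion library was lowest of its group for CCN1, CCN2, YAP1 and AJUBA. The kinase gene LATS2 (0.11 ± 0.36), the TAZ gene WWTR1 (-0.01 ± 0.21) and the DNA-binding partner TEAD1 (-0.03 ± 0.20) had intervals that include 0, from -0.64 to 0.86, from -0.46 to 0.43 and from -0.45 to 0.38. The median over the 10 genes was -0.02, and that over all genes tested 0.01.

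The SMAD3 enhancer deletion was compared with the negative control of set A in the same way. No gene of the 10 and 0% of 11467 genes passed edgeR's test, and for all 10 genes the deletion and control libraries overlapped, where 2.59% of genes were higher and 2.85% lower without overlap. An unadjusted p under 0.05 was reached by 1 of the 10, AMOTL2, and by 778 genes, 6.78%. AMOTL2 measured 35.5, 42.1, 42.3 and 32.3 CPM in the deletion, against 33.6, 24.3, 34.3 and 24.3 CPM in the control. The 3 highest libraries were deletion libraries, and the lowest deletion library stood below 2 of the 4 controls. The log2 fold change was 0.39 ± 0.17 (interval 0.04 to 0.75, edgeR adjusted p = 0.730), and 0.45 ± 0.15 without the 7 libraries (edgeR adjusted p = 0.299, where 0.00864% of genes passed).

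The coactivator gene WWTR1 and the DNA-binding partner TEAD1 were higher on average in the SMAD3 deletion, with 4 libraries in each group. WWTR1 stood at 137 ± 21.2 CPM against 113 ± 11.2 CPM in the control (0.29 ± 0.14). TEAD1 stood at 44.8 ± 6.41 CPM against 39.2 ± 5.90 CPM (0.20 ± 0.15). Their edgeR adjusted p-values were 0.734 and 0.792. Against HPRT targeting, TEAD1 had 0.32 ± 0.15 (edgeR adjusted p = 0.840) and was the 1 of the 10 with an unadjusted p under 0.05, where 5.83% of genes had one and 0% passed adjusted. WWTR1 (0.27 ± 0.14), AMOTL2 (0.26 ± 0.17) and YAP1 (0.25 ± 0.19) were higher on average there too, and the other 6 ran from -0.05 (AJUBA) to 0.04 (CCN1). The CCN genes showed little difference. CCN1 measured 314, 285, 269 and 204 CPM in the deletion, against 323, 241, 278 and 287 CPM in the control, with a log2 fold change of -0.06 ± 0.15 and an interval from -0.37 to 0.25. CCN2 had 0.03 ± 0.13 with an interval from -0.25 to 0.32. ANKRD1 was more variable in the deletion, at 324, 461, 453 and 221 CPM, than in the control, at 343, 350, 342 and 308 CPM, with 0.13 ± 0.18. YAP1 (0.13 ± 0.19), AXL (0.06 ± 0.12), AJUBA (-0.06 ± 0.19) and LATS2 (-0.12 ± 0.25) lay within their SE of 0. The median over the 10 genes was 0.10, against 0.00 over all genes tested.

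**Figure D3:**
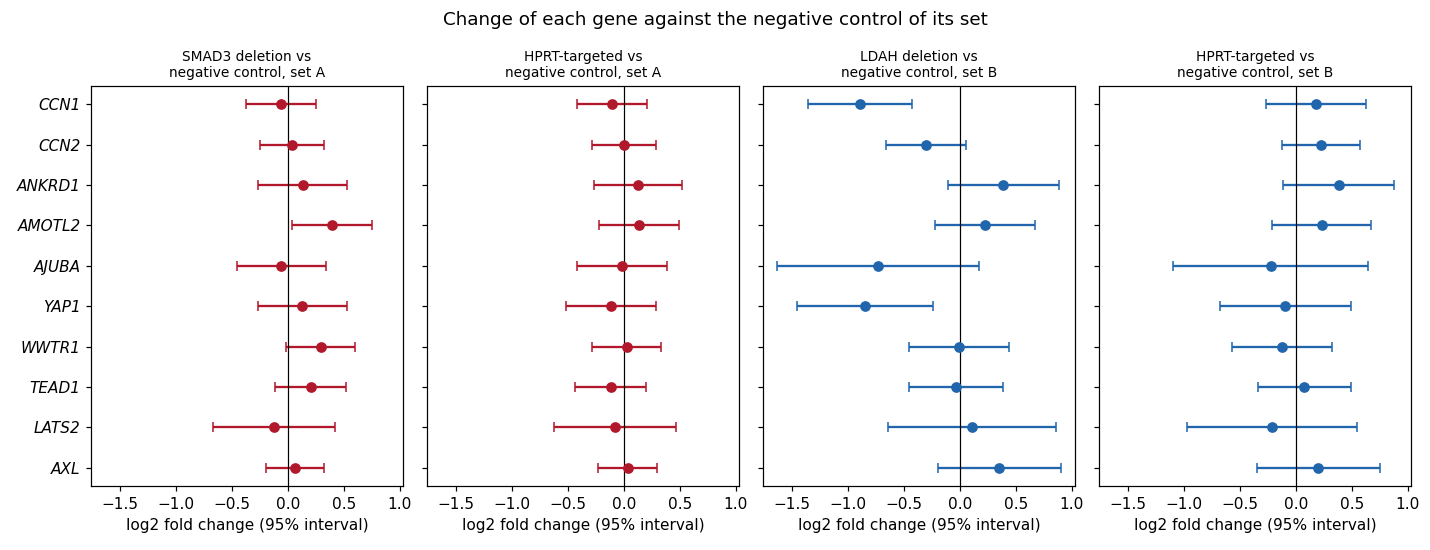
Log2 fold change of each gene (rows) over the negative control of its set, with the 95% interval from edgeR, for SMAD3 deletion and HPRT-targeted cells of set A (red) and LDAH deletion and HPRT-targeted cells of set B (blue). CCN1 and YAP1 in the LDAH deletion, at -0.89 and -0.85, and AMOTL2 in the SMAD3 deletion, at 0.39, have intervals that leave out 0, and none passed the test adjusted over all genes.

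The HPRT guide is directed at a gene outside the pathway, and 0 of the 10 genes passed against their negative controls. In set A the log2 fold changes ran from -0.12 (TEAD1) to 0.13 (AMOTL2), in set B from -0.23 (AJUBA) to 0.38 (ANKRD1), and over both sets from -0.16 (LATS2) to 0.26 (ANKRD1). In all 3 comparisons 0 of the 10 reached an unadjusted p under 0.05 in edgeR, where 2.24%, 1.75% and 3.19% of genes did, and 0% passed adjusted. CCN1 had 0.05 ± 0.10 over both sets, with an interval from -0.15 to 0.25, and CCN2 0.12 ± 0.11.

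Whether the deletions differ in their effect was tested in a fit of all 27 libraries, where 0% of 12055 genes passed and 3.64% had an unadjusted p under 0.05. Each effect was taken over the negative control of its own set. The SMAD3 deletion was made only in set A and the LDAH deletion only in set B. A difference between the deletions and one between the sets therefore cannot be told apart. The effect of the SMAD3 deletion minus that of the LDAH deletion was 0.82 ± 0.27 for CCN1 (interval 0.26 to 1.38) and 0.97 ± 0.35 for YAP1 (interval 0.25 to 1.68), each with an edgeR adjusted p of 1.00. These were the 2 of the 10 with an unadjusted p under 0.05. Without the 7 libraries the difference for CCN1 was 1.16 ± 0.24 and passed (edgeR adjusted p = 0.0206, where 68 genes, 0.55%, passed), and that for YAP1 was 1.00 ± 0.36 (adjusted p = 0.302). The deletion libraries left out had the lowest CCN1 of the SMAD3 group (204 CPM) and the highest of the LDAH group (81.5 CPM). A larger difference for CCN1 was thus in part built in. The HPRT effects of the sets differed by 0.27 ± 0.27 for CCN1, and 0 of the 10 reached an unadjusted p under 0.05 there, against 1.32% of genes, and 0% passed adjusted.

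Levels of CCN1 and AMOTL2 differed between the negative controls of the sets, and only CCN1 did so without overlap. CCN1 fell in the negative control of set B, at 114 ± 14.4 CPM (n = 7), against 282 ± 33.4 CPM (n = 4) in that of set A, by 1.31 ± 0.17 on the log2 scale (edgeR adjusted p = 2.25e-05). Of all genes, 6.69% were lower without overlap in this contrast. All 12 libraries of set A, at 204 to 323 CPM, lay above all 15 of set B, at 30.1 to 142 CPM. AMOTL2 rose in set B, at 46.7 ± 8.36 CPM against 29.1 ± 5.55 CPM in set A, by 0.68 ± 0.19 (adjusted p = 0.0247). The libraries overlapped through 1 of set B, at 29.9 CPM, and its adjusted p missed 0.05 without negative control replicate 2 or 4 of set A. These 2 of 10 genes compare with 1157 of 12055 genes, 9.6%, that passed in this contrast. The labels name the sets as experiment sets A and B and do not say how they differ, so a difference between cells and one in handling cannot be told apart.

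TEAD1 (0.51 ± 0.17, adjusted p = 0.0666), WWTR1 (0.47 ± 0.18, 0.107) and YAP1 (0.41 ± 0.23, 0.314) were higher on average in set B, and ANKRD1 (-0.60 ± 0.21, 0.0758), CCN2 (-0.24 ± 0.14, 0.361) and AJUBA (-0.19 ± 0.33, 0.819) lower, each with its edgeR adjusted p. LATS2 had 0.07 ± 0.33 and AXL 0.00 ± 0.21. Without the 7 libraries 6 of the 10 passed edgeR's test, beside 3482 genes or 28.2% of those tested. These were CCN1 (-1.27) and ANKRD1 (-0.54), which fell, and AMOTL2 (0.76), TEAD1 (0.66), WWTR1 (0.42) and LATS2 (0.34), which rose. The negative control libraries left out were replicates 6 and 7 of set B, and none of set A. They held the lowest LATS2 (57.4 and 33.5 CPM) and TEAD1 (41.4 and 40.9 CPM) of their group, and replicate 7 the lowest AMOTL2 (29.9 CPM). Larger rises of these genes were thus in part built in. The changes of CCN1, ANKRD1 and WWTR1 were smaller than with all libraries.

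LATS2, whose kinase phosphorylates YAP and TAZ and whose gene is itself a YAP target, followed the libraries that stand apart. In set A the 2 such libraries measured 40.8 and 50.7 CPM, against 71.7 to 105 CPM in the other 10. In set B the 5 such libraries ran from 33.5 to 58.7 CPM, with 57.4 and 33.5 in the negative control, 35.3 and 56.6 in HPRT-targeted and 58.7 in LDAH deletion cells, against 102 to 123 CPM in the other 10. All 7 lay below all 20 others, at 0.462 times their mean, a pattern that 7.1% of 12055 genes showed. Within sets the ratio of means was 0.495 (set A) and 0.425 (set B). Since these libraries were picked by their expression across genes, this is a description without a test.

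**Figure D4:**
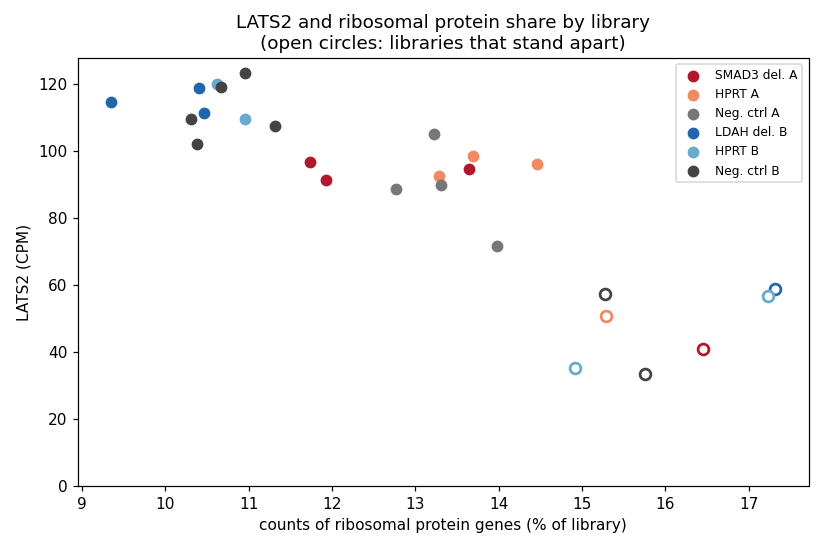
LATS2 (CPM, vertical axis from 0) against the share of each library's counts in ribosomal protein genes (percent, horizontal axis), 1 point per library, colour by group, open circles for the 7 libraries that stand apart. The open circles sit at 33.5 to 58.7 CPM and 14.9% to 17.3%, the 20 filled ones at 71.7 to 123 CPM.

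No other gene of the 10 showed this in both sets. CCN1 was lower without overlap in the libraries of set A that stand apart, at 204 and 222 CPM against 241 to 323 CPM in the others, where 16.6% of genes were, and overlapped in set B, at 81.5 to 134 CPM against 30.1 to 142 CPM. TEAD1 in those libraries was below the median of the others in 7 of 7 cases within its set, at 30.4 to 35.6 CPM in set A and 40.9 to 51.5 CPM in set B. The share of all genes with that pattern was not counted, so it may be common. LATS2 means lay close together once the 7 libraries were left out. In set A they were 94.2 ± 2.66 CPM in SMAD3 deletion, 95.7 ± 3.02 CPM in HPRT-targeted and 88.7 ± 13.6 CPM in negative control cells. In set B they were 115 ± 3.75, 115 ± 7.47 and 112 ± 8.61 CPM in LDAH deletion, HPRT-targeted and negative control cells. All libraries left out had lower LATS2 than the rest. A narrower spread in the groups that lost them was thus built in, and no conclusion about the groups is drawn.

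Across the 6 groups the order of levels was clearest for CCN1. Its means in set A, from 263 to 282 CPM, differed by less than the SD within those groups. All libraries of set A lay above those of HPRT-targeted and negative control cells of set B, which overlapped each other, and LDAH deletion cells came last with no overlap to the next group. For CCN2, AJUBA, YAP1, LATS2 and AXL, every step between groups next to each other in the order was smaller than the larger SD of the pair. AMOTL2, WWTR1, TEAD1 and ANKRD1 each had 1 step larger than that, with overlapping libraries at it.

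The wider pathway was read from lists of known components, leaving out the 10 genes. Of 24 measured kinases and upstream regulators, 15 were higher and 9 lower in the LDAH deletion than in its control, with a median log2 fold change of 0.11 against 0.01 over all genes, and 12 were higher and 12 lower in the SMAD3 deletion, with a median of -0.00 against 0.00. In edgeR 0 passed in either, beside 0% of all genes. The core kinases STK4 (0.39 ± 0.23), STK3 (0.16 ± 0.26) and LATS1 (-0.11 ± 0.25), the scaffold SAV1 (-0.13 ± 0.20) and the kinase cofactor MOB1A (-0.40 ± 0.29) gave these log2 fold changes in the LDAH deletion, beside the upstream regulators NF2 (0.26 ± 0.20), AMOTL1 (0.32 ± 0.41) and PTPN14 (0.42 ± 0.61). In the SMAD3 deletion NF2, the merlin gene, had 0.27 ± 0.11 (edgeR adjusted p = 0.730), and STK3, STK4, LATS1, SAV1, MOB1A, AMOTL1 and PTPN14 ran from -0.22 (PTPN14) to 0.11 (MOB1A). AMOT and WWC1 were not analysed here.

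Between the negative controls, 3 of these 24 regulators passed edgeR's test, beside 9.6% of all genes. RASSF1, a scaffold that activates the MST kinases, fell in set B, at 8.21 ± 6.48 CPM (n = 7) against 31.8 ± 0.78 CPM (n = 4) in set A, a log2 fold change of -1.94 ± 0.53 (adjusted p = 0.0181). STRN4, a subunit of a phosphatase complex that opposes those kinases, rose by 0.51 ± 0.16 (adjusted p = 0.0447), and FRMD6, an upstream FERM protein, by 0.66 ± 0.16 (adjusted p = 0.00855).

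Of the other DNA-binding partners and their competitors, 4 were tested in the deletions. TEAD2 had 0.15 ± 0.19 in the LDAH and 0.09 ± 0.14 in the SMAD3 deletion, TEAD4 -0.15 ± 0.21 and -0.09 ± 0.12, and VGLL4, a repressor that competes with YAP for TEAD, 0.32 ± 0.21 and -0.02 ± 0.20. VGLL3, another TEAD cofactor, had 0.79 ± 0.28 in the LDAH deletion (edgeR adjusted p = 0.953) and 0.44 ± 0.19 in the SMAD3 deletion (edgeR adjusted p = 0.730). TEAD3 was hardly detected, with 16 of 27 libraries at 0 and none above 0.691 CPM, near or under the 0.387 to 0.875 CPM that a count of 0 allows.

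A list of 22 YAP and TAZ targets, written down from memory and 6 of them members, gave 13 tested genes beside the members in set B, 6 higher and 7 lower in the LDAH deletion, with a median of -0.11 against 0.01 over all genes. In set A it gave 12, 5 higher and 7 lower in the SMAD3 deletion, with a median of -0.07 against 0.00. In edgeR 0 passed in either deletion, beside 0% of all genes. Between the negative controls 0 passed as well, beside 9.6% of all genes. MYOF, a membrane repair protein, had 0.33 ± 0.44 in the LDAH and 0.20 ± 0.24 in the SMAD3 deletion, CRIM1, a membrane protein that binds BMPs, -0.37 ± 0.27 and 0.17 ± 0.18, and NT5E, the ecto-5′-nucleotidase CD73, -0.26 ± 0.16 and -0.03 ± 0.11. F3, tissue factor, stood at 0.731 ± 1.15 CPM in the LDAH deletion and 0.478 ± 0.690 CPM in its control, and TGFB2 was at 0 in 18 of 27 libraries.

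SRF and its MRTF cofactors share several targets with YAP, CCN1 among them. A list of SRF itself and SRF and MRTF targets was read, which held no member and no gene of the YAP and TAZ target list. Of its 16 measured genes, 13 were higher and 3 lower in the LDAH deletion, with a median of 0.19 against 0.01. In the SMAD3 deletion 8 were higher and 8 lower, with a median of -0.01 against 0.00. In edgeR 0 passed in either deletion, beside 0% of all genes. Unadjusted p-values under 0.05 came from 2 of the 16 in the LDAH and 1 in the SMAD3 deletion, beside 4.61% and 6.78% of all genes. They were TPM1, a tropomyosin (0.36 ± 0.14, edgeR adjusted p = 0.971) and ACTA2, smooth muscle actin (0.61 ± 0.28, edgeR adjusted p = 1.00) in the LDAH deletion, and SRF in the SMAD3 deletion (-0.51 ± 0.18, edgeR adjusted p = 0.702). Between the negative controls 3 of the 16 passed, 1 higher and 2 lower, beside 9.6% of all genes. SRF fell in set B, at 81.4 ± 12.98 CPM (n = 7) against 271 ± 29.6 CPM (n = 4) in set A, by 1.74 ± 0.17 (edgeR adjusted p = 3.18e-07). ACTG1, cytoplasmic actin, fell by 0.87 ± 0.13 (adjusted p = 6.69e-05), and VCL, the adhesion protein vinculin, rose by 0.53 ± 0.17 (adjusted p = 0.0455).

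Genes whose levels tracked each member from library to library were found by Pearson correlation of log2 CPM after the group means were taken out, over 27 libraries and 8465 genes. The libraries share their preparation and depth, so these are descriptions. For CCN1 the 3 most similar included AAMP (r = 0.83, and 0.89 over the 20 libraries that do not stand apart) and SEC61G (0.79 and 0.92). For LATS2 they included AKAP13 and GRN, each at 0.98, and at 0.58 and 0.19 over the 20 libraries. For TEAD1 they were NHERF2, DBN1 and TACC1, at 0.86 each and 0.67, 0.61 and 0.69 over the 20. AMOTL2 followed BAP1 (0.90 and 0.78), ZEB2 and GAPVD1, and WWTR1 followed CAVIN3 (0.80 and 0.77), TIMP1 and SNRK.

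CCN2 was most like PIP4P1 (0.76 and 0.68), EIF1AD and INF2, ANKRD1 most like ZC3H15 (0.85 and 0.83), PBDC1 and RHOBTB3, and AJUBA most like MCCC2 (0.85 and 0.85), UBE2D1 and CNOT8. YAP1 was most like TP53TG1 (0.75 and 0.75), CTBP1 and PXDC1, and AXL most like PSMD2 (0.79 and 0.63), GRK6 and C19orf47. No member was among the nearest 3 of another. Among the members themselves CCN1 and CCN2 had a correlation of 0.49 over 27 and 0.62 over 20 libraries, LATS2 and TEAD1 0.81 and 0.37, and LATS2 and AMOTL2 0.66 and -0.15.

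Some of the 10 genes overlap other genes in GENCODE 29. RPL39P5, a pseudogene, and AL132780.3 lie on the same strand near the 3′ ends of AMOTL2 and AJUBA, so their reads could be shared, and CCN2, LATS2, WWTR1, TEAD1, YAP1 and AXL have antisense neighbours. These neighbours were not analysed here. The sources used here do not say whether counting used the strand, so sense and antisense reads cannot be told apart.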

How the data were processed

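The deposited table holds raw whole-number read counts per Ensembl gene, made by the authors from QuantSeq 3′ mRNA-seq FWD libraries read from 1 end over 86 cycles, as the labels' protocols state. The submitters' processing notes name genome build hg38 and edgeR 3.24.3, with no role given; which aligner and counter were used, and whether by strand, is not given in the sources used here. All 27 count columns were used (0 were left out), and 0 rows named no gene. Symbols came from current names for 13949 genes and from GENCODE 29 for 57, and 2 had none.

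Counts were analysed in edgeR 4.0.16 (R 4.3.3) with TMM scaling and filterByExpr by group. Contrasts of group means were tested two-sided by quasi-likelihood, and p-values were adjusted after Benjamini and Hochberg over all genes of a fit, with a threshold of 0.05. Fits held the 12 libraries of set A, the 15 of set B, the 19 HPRT-targeted and negative control libraries with the set as covariate, or all 27. CPM were scaled over all 27 libraries together, so folds of mean CPM differ slightly from the fits. The SE is the log2 fold change divided by the square root of F, and 95% intervals use it with the t distribution. The scripts were tested on simulated data. A count of 0 allows up to 0.387 to 0.875 CPM (3 counts of a library's total), for counting error only, since reads carry no molecular identifiers. Pairs of libraries within groups gave chi-square values over their degrees of freedom between 3.12 and 84.5, above sampling noise. Libraries stand apart where their median correlation with their set lies over 3 scaled median absolute deviations below the set's median.

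The 10 members and the lists were chosen with earlier results of these data known. All 10 are named in each of the 10 comparisons, as are preset list genes, list genes past the threshold, and the 3 genes most like each member among those with a mean CPM of at least 10 (prior count 2). Some likeness results are not reported here. Other list genes named with an unadjusted p were chosen after their values were seen. Alternatives were DESeq2 1.42.0, voom of limma 3.58.1 with sample quality weights, DESeq2 size factors, no filter or a mean CPM of at least 10, other libraries in the fit, Spearman correlation, leaving out each library and, added later, leaving out the 7 libraries.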

Additional observations from a re-analysis of the deposited data

Results flagged for a closer look

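In 5 of 60 sets of values (a gene in a group), 1 library lay farther from the others than Dixon's criterion allows. About 1 in 20, here 3, would come by chance. The sets share libraries and are not independent, so the 5 cannot be weighed against the 3. LATS2 was low in SMAD3 deletion replicate 4 of set A, at 40.8 CPM with the others at 91.3 to 96.6 CPM, in HPRT-targeted replicate 3 of set A, at 50.7 CPM with the others at 92.5 to 98.4 CPM, and in LDAH deletion replicate 4 of set B, at 58.7 CPM with the others at 111 to 119 CPM. These 3 libraries are among the 7 that stand apart across genes. AJUBA was high in negative control replicate 7 of set B, which stands apart too, at 43.03 CPM with the others at 14.9 to 25.0 CPM. TEAD1 was low in negative control replicate 4 of set A, which does not stand apart, at 30.5 CPM with the others at 41.4 to 43.3 CPM.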

How the results depend on the processing

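Counts of called genes moved most with the tool and with the 7 libraries that stand apart. Against 0 in edgeR, DESeq2 called 14 genes for the SMAD3 deletion and 14 for the LDAH deletion over their negative controls, 17 for the SMAD3 deletion over HPRT targeting, 1 for HPRT targeting in set A and 1 in both sets, 4 for the difference of the deletion effects and 2 for that of the HPRT effects. Voom of limma, which weights samples by quality, called 2, 5, 6 and 1 for the SMAD3 deletion over negative control and over HPRT targeting, HPRT targeting in both sets, and the difference of the deletion effects. Without the 7 libraries the counts were 1, 1 and 55 in set A (SMAD3 deletion over negative control, HPRT over negative control, SMAD3 deletion over HPRT), 212 and 77 for the LDAH deletion over negative control and over HPRT, 1 for HPRT in both sets, and 68 and 1 for the differences of the deletion and HPRT effects. The LDAH deletion over negative control called 9 genes with all 27 libraries in the fit. Between the negative controls the count of 1157 was 3639 with voom and 3482 without the 7 libraries. With 1 library left out it ran from 693 (without negative control replicate 4 of set A) to 1328, and the other counts from 0 to 2 (SMAD3 deletion over HPRT), 0 to 3 (LDAH deletion over negative control), 0 to 4 and 0 to 1 (the differences). The causes were not tested.

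CCN1 in the LDAH deletion over negative control kept its sign in every setting, with adjusted p-values of 0.0711 in DESeq2, 0.0722 in voom, 0.0551 with all 27 libraries in the fit, and 0.122 to 1.00 with 1 library left out; it passed without the 7 libraries. Of the log2 fold changes printed, none past the threshold changed sign. Values near 0 did: with voom and without the 7 libraries, CCN1 (0.063 and 0.042) and LATS2 (0.017 and 0.092) in the SMAD3 deletion over negative control, WWTR1 in the LDAH deletion (0.16 and 0.033), AJUBA for HPRT in set B (0.29 and 0.47) and for the difference of the HPRT effects (0.31 and 0.59). Without the 7 libraries alone, AXL in the SMAD3 deletion was -0.0040, and LATS2 was -0.0071 in the LDAH deletion over HPRT and 0.066 for HPRT in both sets. In the LDAH deletion over HPRT, ANKRD1 was -0.0014 with a mean CPM of at least 10, and AMOTL2 was 0.0071 with no filter, 0.028 with voom, 0.033 without the 7 libraries, 0.0011 with only both groups in the fit and 0.0056 with all 27 libraries. With 1 library left out, ranges crossed 0 in the SMAD3 deletion over negative control for CCN1 (-0.15 to 0.058), CCN2 (-0.041 to 0.14), ANKRD1 (-0.0020 to 0.32), AJUBA (-0.19 to 0.090), YAP1 (-0.0028 to 0.24) and LATS2 (-0.22 to 0.11), over HPRT for AJUBA (-0.18 to 0.072) and CCN1 (-0.045 to 0.16), in the LDAH deletion over HPRT for ANKRD1 (-0.073 to 0.21) and AMOTL2 (-0.14 to 0.17), over negative control for WWTR1 (-0.12 to 0.12), TEAD1 (-0.12 to 0.059) and LATS2 (-0.035 to 0.29), for HPRT in set B for AJUBA (-0.61 to 0.027), for the difference of the HPRT effects for AJUBA (-0.59 to 0.043), and between the negative controls for LATS2 (-0.020 to 0.22) and AXL (-0.083 to 0.10). Likeness by Spearman shared 0 of the 3 genes for CCN1, YAP1, TEAD1 and LATS2. No paired analysis was possible because the labels give the groups no shared replicate numbers; the library numbers are unique, and adjacent ones are not said to share a batch.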
